A study of Schizosaccharomyces pombe with 4 samples.

Results

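The genes described here are the protein-coding genes of fission yeast (*Schizosaccharomyces pombe*) that lie on both sides of its 3 centromeres. They were taken as all genes lying wholly within 3 windows, namely 3700 to 3840 kb of chromosome I around *cen1*, 1550 to 1695 kb of chromosome II around *cen2*, and 1020 to 1190 kb of chromosome III around *cen3* (coordinates of the deposited table, assembly ASM294v2). This rule uses position only and gave 133 of 5129 protein-coding genes listed in the table, with 45 genes around *cen1*, 44 around *cen2* and 44 around *cen3*. Total RNA was sequenced from 2 cultures labelled *exo2*Δ (strain YAM2397, in which the kanMX4 cassette takes the place of *exo2*) and 2 cultures labelled WT (strain YAM2394), all grown at 32°C in rich medium to mid-log phase. Both strains are haploid, are each a single strain of the same collection and share the ade6-M210, ura4-D18 and leu1-32 alleles. *exo2* encodes the cytoplasmic 5′–3′ exoribonuclease of fission yeast, the counterpart of Xrn1 in budding yeast. The question was how the RNA of these genes differed between the *exo2*Δ and WT libraries, by centromere and by distance from it.

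A fission yeast centromere has a central core on which the histone H3 variant Cnp1 (CENP-A) and the kinetochore assemble. The core is flanked by inverted repeats, and the outer repeats are packed into heterochromatin through the RNAi pathway, in which small RNAs guide the methylation of histone H3 on lysine 9. Clusters of tRNA genes lie within the repeats and at their edges, where some act as barriers that keep heterochromatin from spreading into the neighbouring euchromatin. The genes beyond these edges include ordinary housekeeping genes. In the table, the stretch without any protein-coding gene spanned 39.2 kb at *cen1*, 51.4 kb at *cen2* and 78.2 kb at *cen3*, and is called the gap below. The left arms of *cen1*, *cen2* and *cen3* held 19, 21 and 21 of the genes within the windows, and the right arms 26, 23 and 23.

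The deposited values are densities in tag/nt, normalized by the authors on sn(o)RNA levels. The libraries held between 46964618 and 51019820 reads on features. *exo2* itself had 0.663 and 0.636 tag/nt in the *exo2*Δ-labelled libraries, against 0.488 and 0.458 tag/nt in the WT libraries. With this scaling it was thus not lower in the libraries that carry its deletion by label. Its log2 ratio of 0.46 lay under the median of all mRNAs (1.08), and it would be negative with either shift given below. The paper states that strain YAM2397 was checked by PCR on genomic DNA and by northern blot. Because *exo2* held reads in these libraries, all directions below are between libraries as labelled. Densities were compared on the scale of log2(density + 1.55e-04 tag/nt) with limma, and a gene was called when its adjusted p was under 0.05 and its ratio above 2 or under 0.5. The scaling sets the level of all genes together. Scaling on total reads would shift every log2 ratio by -0.49, and a median-of-ratios scaling by -1.20, so that values are also given as a difference from the median of all mRNAs, which the scaling does not move.

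The RNA of most genes flanking the centromeres was higher in the *exo2*Δ-labelled libraries with the scaling of the authors, with 116 positive log2 ratios. Of the 133 genes, 132 had enough reads to be tested, and 63 genes (47.7%) were higher past the threshold. Among all features tested, 61.5% were called higher, and among all mRNAs 54.8%. The share of all features includes 1638 lncRNAs (XUTs) that the authors selected for a rise in these libraries. Of these, 1633 were called higher, so that selection raises this share. Only *fba1* was called lower, which is 0.758% of the genes tested, against 0.918% of all features and 0.276% of all mRNAs. The median log2 ratio was 0.95 (quartiles of 0.46 and 1.44), with 0.97 between the libraries numbered 1 and 0.96 between those numbered 2. For all 5079 mRNAs tested the median was 1.08, with 1.07 and 1.09 for the same pairs. With scaling on total reads the median of the flanking genes was 0.46, and with the median of ratios it was -0.25, but it lay 0.13 under that of all mRNAs with either scaling. In 113 of the 132 genes tested the *exo2*Δ-labelled libraries both exceeded the WT libraries, and in 13 both lay below them. Among all 5079 mRNAs tested these counts were 4628 and 276. The share of cells that express a gene and the RNA per cell cannot be told apart in RNA from whole cultures.

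The gene that was not tested was *moa1* (SPAC15E1.07c), encoding a meikin, a kinetochore protein of meiosis I. It received 0 and 2 reads in the *exo2*Δ-labelled libraries and 0 and 1 reads in WT, which is at or under the floor of 3 reads in each library.

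**Figure D1:**
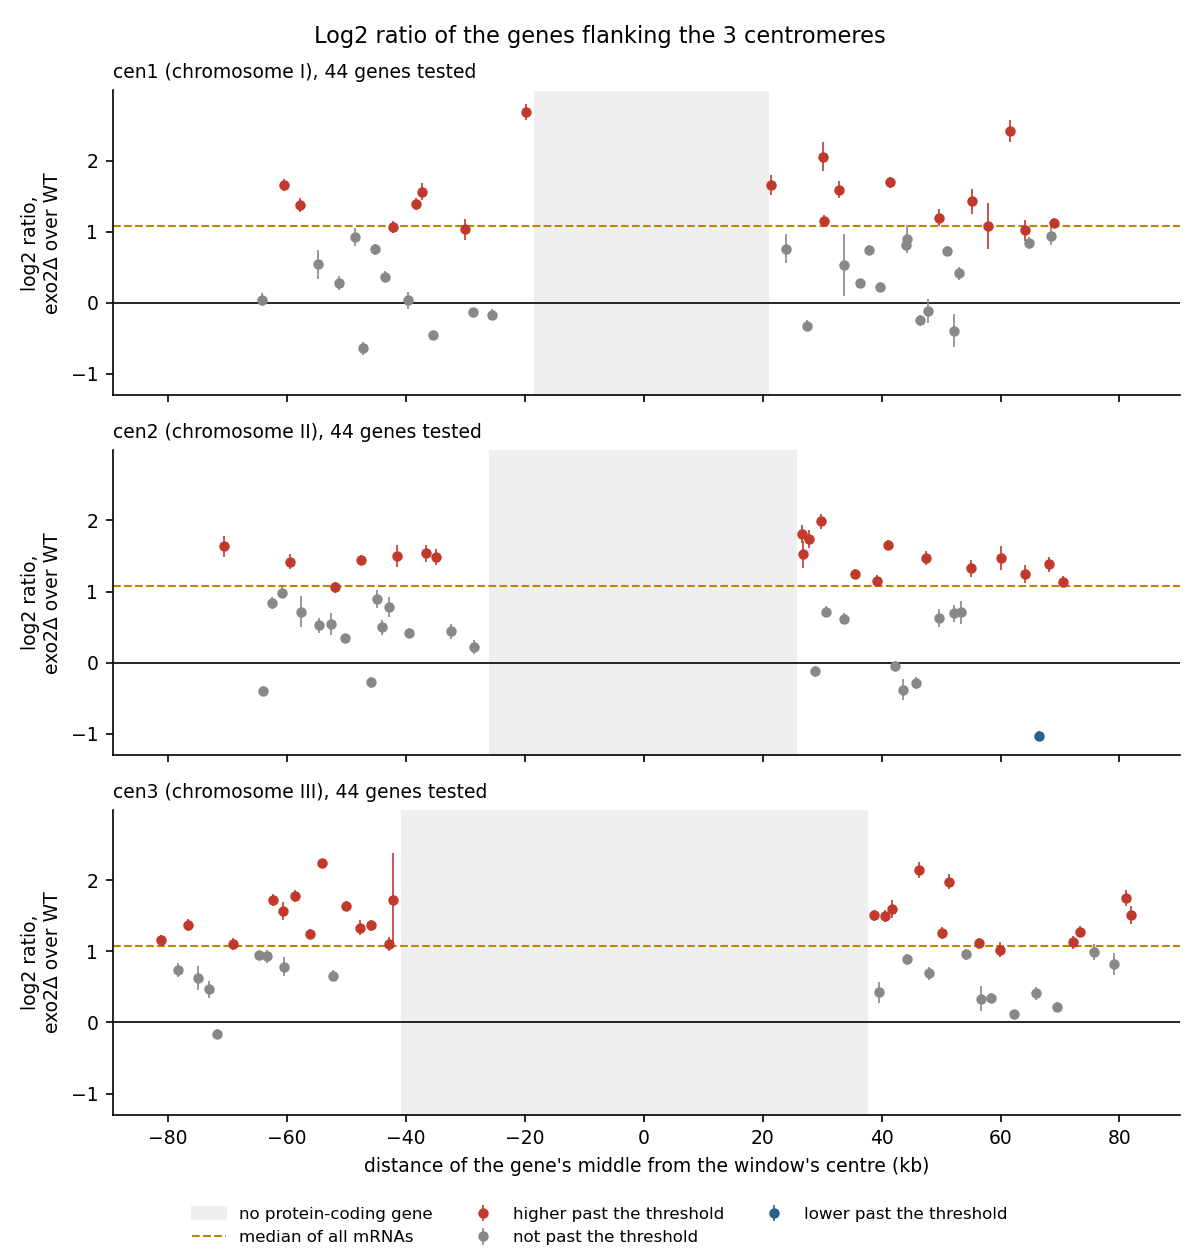
Log2 ratio of the density of each gene tested, *exo2*Δ over WT (y axis, bars give the standard error of limma), against the distance of the gene's middle from the window's centre in kb (x axis), for the 3 windows. Called genes stand beside uncalled ones at all distances, per1 at the left edge of the *cen1* gap has the highest value (2.68), and fba1 on the right of *cen2* is the only gene called lower (-1.03).

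The count of called genes was lowest around *cen1* and highest around *cen3*. Around *cen1*, 18 of 44 genes tested were higher (40.9%), with a median log2 ratio of 0.83 (0.94 and 0.81 for the libraries numbered 1 and 2). Around *cen2*, 20 of 44 were higher (45.5%) with a median of 0.86 (0.88 and 0.92), and around *cen3*, 25 of 44 were higher (56.8%) with a median of 1.11 (1.06 and 1.16). Relative to the median of all mRNAs these were -0.25, -0.22 and 0.03. The rest of each chromosome differed less, since mRNAs outside the windows had medians of 1.09 on chromosome I, 1.06 on chromosome II and 1.13 on chromosome III. By arm, the median was lowest on the left of *cen1* (0.65) and on the left of *cen2* (0.78), followed by the right of *cen1* (0.87), the right of *cen3* (1.02), the left of *cen3* (1.15) and the right of *cen2* (1.16). These are medians over 18 to 26 genes that share the same 4 libraries, and the difference between centromeres was not tested. With the median of ratios, the medians of all 3 centromeres were negative (-0.38, -0.34 and -0.094).

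The number of abundant genes ran the other way, and its part in these counts was not tested. Of the 132 genes, 16 had a mean WT density above 5 tag/nt, and 8 of these lay around *cen1*, 6 around *cen2* and 2 around *cen3*. None of the 16 was called higher and 12 had a negative log2 ratio, with a median of -0.17 (range of -1.03 to 0.34). Among all mRNAs above 5 tag/nt, 40 of 450 were called higher (8.9%) and the median was 0.08. Among the 116 flanking genes at or under this level, 63 were higher (54.3%) with a median of 1.08, against 59.4% and 1.14 for the other 4513 mRNAs of that level. In these, 18 of 36 genes were higher around *cen1* (median of 0.98), 20 of 38 around *cen2* (1.10) and 25 of 42 around *cen3* (1.12). The level of 5 tag/nt was chosen after the values were seen. Across genes, the log2 ratio and the WT level had a Spearman's rho of -0.39 for the 132 genes and of -0.44 for all 5079 mRNAs, as a description, since the WT density enters both measures and genes are not independent replicates. In the quartile of mRNAs with the highest WT density (above 1.15 tag/nt), the 30 flanking genes had a median log2 ratio of 0.25, against 0.63 for the 1270 mRNAs of this quartile. The 10 such genes around *cen1* had a median of -0.15, the 11 around *cen2* one of 0.34 and the 9 around *cen3* one of 0.95.

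**Figure D2:**
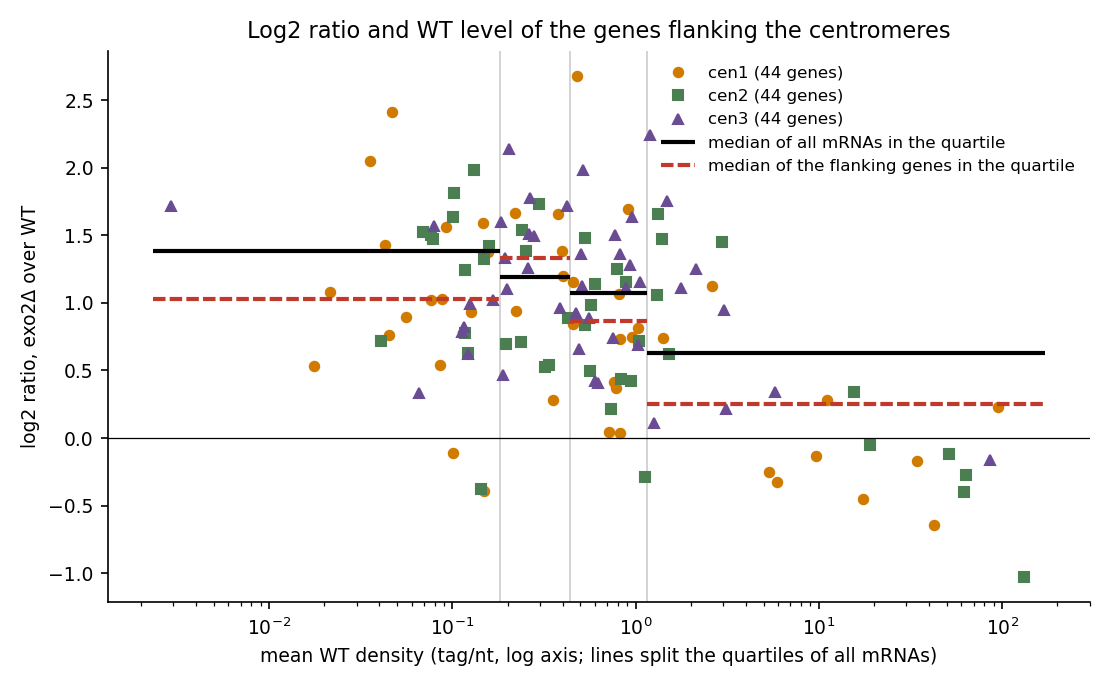
Log2 ratio, *exo2*Δ over WT (y axis), against the mean WT density in tag/nt (x axis, log scale) for the 132 genes tested, by centromere. Black bars give the median of all mRNAs in each quartile of WT density and dashed red bars that of the flanking genes. Both fall at high density, to 0.63 and 0.25 in the top quartile, where most of the genes at or under 0 belong to *cen1* and *cen2*.

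Genes that border the gaps were examined next, since the outer repeats and their heterochromatin lie inside them. The 6 genes at the edges of the gaps all had positive log2 ratios, except *rpb1* with scaling on total reads and *rpb1* and *chk1* with the median of ratios. Of these 6 genes, 5 were called higher (83.3%), against 54.8% of all mRNAs and 61.5% of all features. With so few genes, the difference from these shares was not tested. Left of *cen1* the edge gene is *per1* (SPAP7G5.06, chromosome I, 3748767 to 3751729, + strand), which encodes an amino acid permease. Its density was 2.92 and 3.15 tag/nt in the *exo2*Δ-labelled libraries, against 0.528 and 0.424 tag/nt in WT. The 6.41-fold ratio (log2 ratio of 2.68 ± 0.11, standard error, limma, adjusted p = 2.83e-06) was the highest of all 132 genes, and the groups were far apart relative to the spread within each. An annotated lncRNA, SPNCRNA.935, overlaps the first 67 nt of *per1* on the same strand and had a log2 ratio of 0.18 (adjusted p = 0.308 from limma). On the other side of *cen1*, *emc5* (SPAP4C9.02, 3790912 to 3791756, + strand), for a subunit of the ER membrane protein complex, had 0.649 and 0.737 tag/nt in the *exo2*Δ-labelled libraries and 0.192 and 0.249 tag/nt in WT, a 3.16-fold ratio (adjusted p = 3.32e-05 from limma).

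At *cen2* the edge genes differed from each other. *rpb1* (SPBC28F2.12, chromosome II, 1591120 to 1596744, + strand), encoding the largest subunit of RNA polymerase II, had 0.895 and 0.811 tag/nt in the *exo2*Δ-labelled libraries and 0.788 and 0.683 tag/nt in WT. The log2 ratio of 0.22 ± 0.10 (standard error, limma, adjusted p = 0.0767) was close to the spread between replicates, and it became -0.28 with scaling on total reads. *yox1* (SPBC21B10.13c, 1648153 to 1650147, + strand), a corepressor of the MBF complex that drives genes of the G1/S transition, had 0.340 and 0.376 tag/nt in the *exo2*Δ-labelled libraries, against 0.0952 and 0.109 tag/nt in WT (3.51-fold, adjusted p = 1.44e-05 from limma). At *cen3*, the checkpoint kinase gene *chk1* (SPCC1259.13, chromosome III, 1059799 to 1064443, + strand) had 0.419 and 0.433 tag/nt in the *exo2*Δ-labelled libraries and 0.205 and 0.191 tag/nt in WT. Its log2 ratio of 1.10 ± 0.10 (standard error, limma, adjusted p = 4.33e-05) was 0.76 when only its coding exons were used, which ends the call. *ppc1* (SPCC4B3.18, 1142616 to 1144737, − strand), for an enzyme of coenzyme A synthesis, had 2.13 and 2.26 tag/nt in the *exo2*Δ-labelled libraries, against 0.749 and 0.798 tag/nt in WT (2.84-fold, adjusted p = 4.06e-06 from limma).

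The next gene on each arm lies behind these. *rec6* (SPBC21B10.12), encoding a protein of meiotic recombination, lies within the span of *yox1* on the other strand and was higher, with 0.177 and 0.223 tag/nt in the *exo2*Δ-labelled libraries and 0.0618 and 0.0772 tag/nt in WT (adjusted p = 1.82e-04 from limma). *meu27* (SPCC1259.14c), a meiotically upregulated gene within the span of *chk1* on the other strand, was nearly silent, with 24 and 22 reads in the *exo2*Δ-labelled libraries and 10 and 8 reads in WT. Its log2 ratio of 1.72 ± 0.66 (standard error, limma, adjusted p = 0.0411) was no longer called without either of the *exo2*Δ-labelled libraries (adjusted p = 0.0750 without replicate 1 and 0.0562 without replicate 2, limma). *rad50*, for a DNA double-strand break repair protein, had 0.0830 and 0.0701 tag/nt in the *exo2*Δ-labelled libraries and 0.0407 and 0.0494 tag/nt in WT, a log2 ratio of 0.76 that did not reach 2-fold. *hmo1* (SPBC28F2.11), for an HMG-box protein of rDNA transcription, and *cmc2* (SPCC4B3.20), for a cytochrome *c* oxidase biogenesis protein, had log2 ratios of 0.44 and 0.42, both below the threshold and both negative with scaling on total reads (-0.05 and -0.07). The second gene on the left of *cen1*, *rpl1002*, is described with the ribosomal protein genes.

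**Figure D3:**
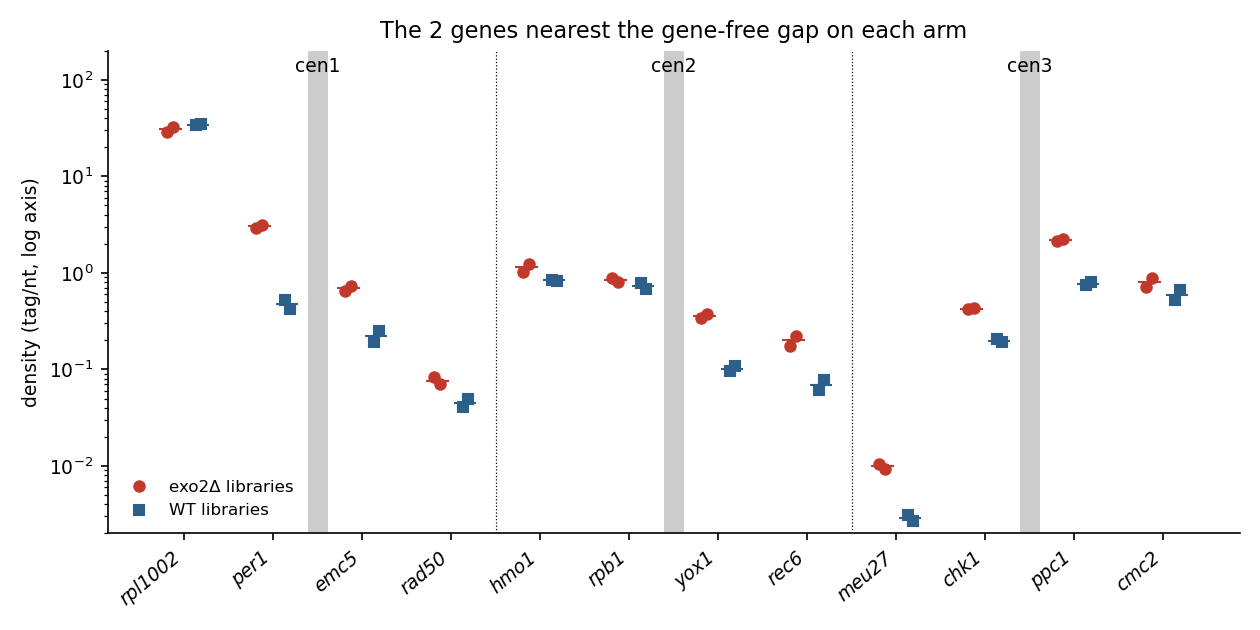
Density in tag/nt (y axis, log scale) of the 2 genes nearest the gap on each arm, in the 2 *exo2*Δ libraries (circles) and the 2 WT libraries (squares). Short bars give the mean of each pair, gray strips the gaps and genes are in chromosome order. per1, emc5, yox1, rec6, meu27, chk1 and ppc1 were called higher, and rpl1002 is the only gene whose *exo2*Δ libraries lie below those of WT.

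Whether the difference depended on distance changed with how distance was measured. From the centre of each window, the 66 nearer genes tested had a median log2 ratio of 0.89 and the 66 farther genes 0.99. From the edge of the gap, the 67 nearer genes had a median of 1.11 and the 65 farther genes 0.93, and a split within each centromere gave 1.09 and 0.93. The gaps differ in length and are not centred in the windows, so that all genes of *cen3* lie at least 38.7 kb from the centre while *per1* lies 19.8 kb from it. The first 3 genes of each arm had a median of 1.42, with 12 of 18 called higher (66.7%). This stands beside 54.8% of all mRNAs and 61.5% of all features, and the difference was not tested. Genes 4 to 10 of each arm had a median of 1.07 with 21 of 41 higher, and those from the eleventh on had a median of 0.90 with 30 of 73 higher. The median WT density of these groups ran between 0.377 and 0.546 tag/nt without the same order. These groupings by rank were chosen after values were seen. Over the 132 genes, Spearman's rho between the log2 ratio and distance was -0.01 from the window's centre and -0.14 from the gap, and per centromere (44 genes each) it was 0.01, -0.12 and -0.26 from the gap for *cen1*, *cen2* and *cen3*. These are descriptions across genes, and such values are weak. By direction of transcription, a split also chosen after values were seen, the median was 1.05 for the 68 genes read toward the gap and 0.91 for the 64 read away from it. The order was the same at each centromere, with 0.87 and 0.67 at *cen1*, 0.98 and 0.86 at *cen2*, and 1.20 and 1.07 at *cen3*, and the difference was not tested.

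The genes with the largest ratios, besides those at the gap edges, were spread over the windows. Around *cen1* these were SPAC4H3.04c, an uncharacterized gene with 0.238 and 0.264 tag/nt in the *exo2*Δ-labelled libraries against 0.0498 and 0.0440 tag/nt in WT, and *cdd1*, encoding a cytidine deaminase, with 0.146 and 0.145 tag/nt in the *exo2*Δ-labelled libraries against 0.0301 and 0.0406 tag/nt in WT. Their ratios were 5.33-fold and 4.15-fold. Around *cen2*, *kgd4*, for a mitochondrial protein, had 0.523 and 0.519 tag/nt in the *exo2*Δ-labelled libraries and 0.126 and 0.137 tag/nt in WT (3.96-fold). *dpm2*, the regulatory subunit of dolichol-phosphate mannosyltransferase, had 0.938 and 1.02 tag/nt in the *exo2*Δ-labelled libraries and 0.263 and 0.332 tag/nt in WT (3.32-fold). Around *cen3*, *pdx1*, for a component of the pyruvate dehydrogenase complex, had 5.47 and 5.79 tag/nt in the *exo2*Δ-labelled libraries and 1.17 and 1.21 tag/nt in WT (4.72-fold). *cwf20*, for a spliceosome-associated protein, had 0.834 and 0.961 tag/nt in the *exo2*Δ-labelled libraries and 0.192 and 0.214 tag/nt in WT (4.41-fold). *fra3* had 1.87 and 2.25 tag/nt in the *exo2*Δ-labelled libraries and 0.513 and 0.526 tag/nt in WT (3.95-fold). In each of these genes the libraries of each label lay close together and far from those of the other. *cwf20* shares 556 nt of its strand with *mid1*, an anillin-related gene with a log2 ratio of 0.89, so that some reads may count for both genes.

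The lowest ratios belonged to abundant mRNAs. *fba1* (SPBC19C2.07, chromosome II, 1688336 to 1689599, + strand), encoding the glycolytic enzyme fructose-bisphosphate aldolase, had the highest WT density of all flanking genes. It had 65.8 and 63.4 tag/nt in the *exo2*Δ-labelled libraries (64.6 ± 1.71, SD, n = 2), against 138 and 126 tag/nt in WT (132 ± 8.07, SD, n = 2). The log2 ratio was -1.03 ± 0.07 (standard error, limma, adjusted p = 1.55e-05). The groups did not overlap, but the ratio of 0.490 is close to the threshold of 0.5, and *fba1* was not called without WT replicate 1 or with scaling on summed sn(o)RNA reads (-0.96). *tma19*, for the translationally controlled tumor protein homolog, was the second most abundant, with 109 and 112 tag/nt in the *exo2*Δ-labelled libraries and 92.5 and 96.2 tag/nt in WT. Its log2 ratio of 0.23 (adjusted p = 0.0158 from limma) became -0.26 with scaling on total reads. *ppi1*, for a cyclophilin, had 49.96 and 54.8 tag/nt in the *exo2*Δ-labelled libraries and 60.9 and 65.8 tag/nt in WT (log2 ratio of -0.27). *gua2*, for GMP synthase, had 12.5 and 13.1 tag/nt in the *exo2*Δ-labelled libraries and 17.3 and 17.7 tag/nt in WT (-0.45), and *sdh1*, for the flavoprotein subunit of succinate dehydrogenase, 4.71 and 4.76 tag/nt in the *exo2*Δ-labelled libraries and 6.34 and 5.54 tag/nt in WT (-0.32). In these 3 genes both *exo2*Δ libraries were below both WT libraries.

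Less abundant genes were also among the lowest. SPBC21B10.15, an uncharacterized gene, had 0.112 and 0.107 tag/nt in the *exo2*Δ-labelled libraries and 0.133 and 0.153 tag/nt in WT (log2 ratio of -0.38, adjusted p = 0.04001 from limma). Around *cen3* the lowest genes besides *rps1802* were *hem12*, for an enzyme of heme synthesis, and *mam301*, with log2 ratios of 0.11 and 0.22. Both values were negative with scaling on total reads (-0.38 and -0.28), and that of *hem12* was -0.04 over coding exons. *nro1*, for a regulator of the sterol response, was the second most abundant gene around *cen3*, with 6.97 and 7.64 tag/nt in the *exo2*Δ-labelled libraries and 5.67 and 5.85 tag/nt in WT (log2 ratio of 0.34, and -0.15 with scaling on total reads).

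The 5 ribosomal protein genes of the windows stood lowest as a group, and their promoters are shown because most of them hold sequence elements known for this class. In fission yeast many ribosomal protein genes carry a HomolD box in place of a TATA box, often together with a HomolE box. Stretches of 100 bases near the transcript starts annotated by RefSeq (assembly ASM294v3) are given 5′ to 3′ on the strand of the gene. They were cut around the HomolD match where there is one, and otherwise end just before the start. Capitals mark the letters CAGTCACA (HomolD) or CCCTACCC (a core of HomolE) on either strand. *tma19* is added because its promoter holds the same element.
rpl42 (chrI:3722366-3722465, + strand): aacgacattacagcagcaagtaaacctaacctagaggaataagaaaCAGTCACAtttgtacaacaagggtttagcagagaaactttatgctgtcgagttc
rpl1002 (chrI:3744046-3744145, + strand): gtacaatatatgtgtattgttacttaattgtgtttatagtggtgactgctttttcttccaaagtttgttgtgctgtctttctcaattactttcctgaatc
tma19 (chrI:3810045-3810144, − strand): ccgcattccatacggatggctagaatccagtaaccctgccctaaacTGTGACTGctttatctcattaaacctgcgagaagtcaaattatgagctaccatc
rpl26 (chrII:1558641-1558740, − strand): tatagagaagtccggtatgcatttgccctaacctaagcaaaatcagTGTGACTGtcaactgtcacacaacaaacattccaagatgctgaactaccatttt
rps402 (chrII:1651834-1651933, − strand): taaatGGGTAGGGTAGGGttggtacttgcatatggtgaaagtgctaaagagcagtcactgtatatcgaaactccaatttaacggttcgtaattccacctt
rps1802 (chrIII:1033475-1033574, − strand): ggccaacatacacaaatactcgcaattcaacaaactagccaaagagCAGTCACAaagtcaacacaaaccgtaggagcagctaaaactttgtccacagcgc
The HomolD letters began 45 to 58 bases before the annotated start in *rpl42*, *tma19*, *rpl26* and *rps1802*. In windows from 250 bases before to 50 bases after the start, searched on both strands, they were found at 4 of the 133 flanking genes (3.01%), at 137 of all 5112 genes with such a window (2.68%), and at 84 of the 131 genes named *rpl* or *rps* (64.1%). The HomolE core was found at *rps402* (2 overlapping matches), at SPCC1259.08, and at *kgd4*, which shares the intergenic region with *rps402*, and at 1.58% of all genes. *rpl1002* had neither in its window as an exact match. Only exact matches were counted, so that cagtcact in the stretch of *rps402* and ggtgactg in that of *rpl1002* were left out. Both come close to the HomolD letters as spelled or as their reverse complement. A match is only a run of letters, not a shown site, and the lack of an exact match does not show that a site is absent.

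None of the 5 ribosomal protein genes was called with the scaling of the authors, and all 5 had both *exo2*Δ libraries below both WT libraries. With scaling on total reads *rpl42* was called lower (log2 ratio of -1.13), and with the median of ratios all 5 were, with a median of -1.37. *rpl42* had 25.01 and 29.7 tag/nt in the *exo2*Δ-labelled libraries and 42.5 and 42.4 tag/nt in WT, a log2 ratio of -0.64 ± 0.09 (standard error, limma, adjusted p = 3.65e-04). *rpl26* had 45.0 and 49.5 tag/nt in the *exo2*Δ-labelled libraries and 61.7 and 62.8 tag/nt in WT (-0.40, adjusted p = 0.00139 from limma). The other genes of this group, all within 0.17 of 0, did not pass an adjusted p of 0.05. *rpl1002* had 28.7 and 32.5 tag/nt in the *exo2*Δ-labelled libraries and 33.8 and 34.8 tag/nt in WT. *rps402* had 44.8 and 50.1 tag/nt in the *exo2*Δ-labelled libraries and 50.5 and 52.6 tag/nt in WT, and *rps1802* had 73.0 and 80.0 tag/nt in the *exo2*Δ-labelled libraries and 85.5 and 85.9 tag/nt in WT. The median log2 ratio was -0.17, and that of all 131 *rpl* and *rps* genes was -0.18, with 5 higher and 1 lower. Of the promoters shown above, exact HomolD letters were found at *rpl42* and *rpl26*, the lowest of the group, at *rps1802*, and at *tma19*, whose log2 ratio was 0.23. Near matches were not counted, and a link between these letters and the log2 ratio was not tested. *kgd4*, divergent from *rps402*, had a log2 ratio of 1.99 beside -0.12 for *rps402*. Most ribosomal proteins of fission yeast are encoded by near-identical paralogs, so that the values of single genes depend on how reads common to copies were counted, and uniquely mapped reads were used by the authors.

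Other groups by role, formed after the values were seen, are given by their counts, beside 54.8% called higher and 0.276% called lower among all mRNAs. Of 12 genes for metabolic enzymes, *pdx1* and *ppc1* were higher, *fba1* was lower and 9 were not called, with a median log2 ratio of -0.00, which is 1.08 under the median of all mRNAs. Among them were *lys1* and *ser1* of lysine and serine synthesis (-0.13 and -0.25), and *sua1* and *pmm1*, for sulfate adenylyltransferase and phosphomannomutase (0.34 and 0.28). *cdd1*, for a cytidine deaminase, was not placed in this group and was higher (2.05). The count and median of the enzymes thus depend on how their group is drawn. Of 8 genes for mitochondrial proteins, 7 were higher with a median of 1.32, which is 0.24 above that of all mRNAs. The count depends on how the group is drawn, since with *mdm12*, described below, and with *sdh1* and *pdx1*, placed among the enzymes, it was 8 of 11 with a median of 1.15. *cox9*, a cytochrome *c* oxidase subunit, had 1.44 and 1.33 tag/nt in the *exo2*Δ-labelled libraries and 0.436 and 0.405 tag/nt in WT, and *coa4*, of respiratory chain assembly, had 4.76 and 5.21 tag/nt in the *exo2*Δ-labelled libraries and 1.33 and 1.64 tag/nt in WT. *cbp3* (log2 ratio of 1.50), *azr1* (1.15), *mrpl12* (1.11) and *mgr2* (1.06) were higher too, and *cmc2* was not called.

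Beside 54.8% of all mRNAs, 8 of 14 genes of transcription and chromatin were higher (57.1%), with a median of 1.20. These were *yox1*, *rxt3* of the Clr6 histone deacetylase complex (1.77), *taf8* of TFIID (1.57), *toa1* of TFIIA (1.54), *ngg1* of SAGA (1.48), *swc3* of the Swr1 complex, *set9* and *sre1*, while *rpb1* and *hmo1* were not called. Of 6 splicing genes, *cwf20*, *cwf5* (1.51) and *prp38* (1.38) were higher, and the median was 1.14. Of 5 genes of DNA repair and the checkpoint, *sfr1* (1.50), *chk1* and *srs2* (1.02) were higher, and *rhp26* (0.99) and *rad50* were not called. Of 7 meiotic and mating genes tested, 5 were higher with a median of 1.25, among them *pat1*, the kinase that holds back meiosis (1.48), and *prm1*, of cell fusion (1.03). This group had a median of 101 reads per library, the fewest of the role groups.

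**Figure D4:**
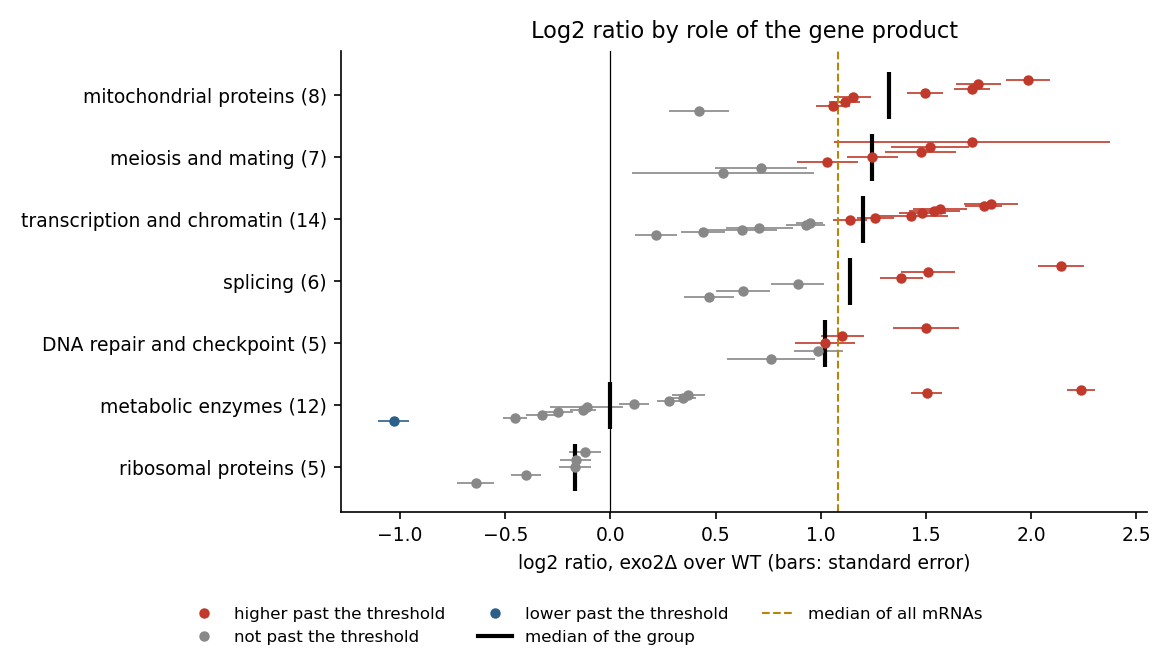
Log2 ratio, *exo2*Δ over WT (x axis, bars give the standard error), of flanking genes grouped by role, with the number of genes tested in parentheses. The ribosomal protein and metabolic enzyme groups have their medians at -0.17 and -0.00, and the medians of the other 5 groups lie between 1.02 and 1.32, near that of all mRNAs (1.08). Groups were formed after values were seen, and cdd1 is not among the enzymes.

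By the lists used here, proteins that act at centromeres are mostly encoded elsewhere. Of a list of 33 genes for centromere and kinetochore proteins, only *sgo2*, for a shugoshin, lies in the windows. It had 0.125 and 0.121 tag/nt in the *exo2*Δ-labelled libraries and 0.0712 and 0.101 tag/nt in WT, a log2 ratio of 0.54 that was not called (adjusted p = 0.0349 from limma, ratio below 2). *ask1*, a subunit of the DASH complex of the outer kinetochore that the list did not hold, was higher (1.42). The list did not hold *moa1* either, which lies in the windows and had too few reads to be tested. How many such genes lie in the windows thus depends on how the list was drawn. Of the 33, 21 were higher (63.6%) and none lower, with a median of 1.53, against 54.8% and 1.08 for all mRNAs. Of a list of 23 genes of RNAi and heterochromatin proteins, none lies in the windows. Of these 23, 13 were higher (56.5%) and none lower, with a median of 1.05, near the values of all mRNAs. Among the 13 were *dcr1*, *rdp1* and *clr4*, which encode Dicer, the RNA-dependent RNA polymerase and the methyltransferase of histone H3 lysine 9.

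Antisense transcripts were examined next. A XUT, the class of lncRNA that the authors defined by its rise in *exo2*Δ in these libraries, covered at least 50 nt of the other strand of 30 of the 133 genes (22.6%), against 21.2% of all 5129 mRNAs. Of these 30 genes, 14 were higher, with a median log2 ratio of 0.94, and of the 102 genes tested without an antisense XUT, 49 were higher, with a median of 0.95. The genes with an antisense XUT had lower levels, with medians over genes of 0.214 and 0.240 tag/nt in the WT libraries, against 0.513 and 0.535 tag/nt for the genes without. *XUT1505*, opposite *rad50*, had 182 and 198 reads in the *exo2*Δ-labelled libraries and 34 and 20 reads in WT (log2 ratio of 3.26). *XUT1065*, opposite *mdm12* and SPBC28F2.05c, had 246 and 273 reads in the *exo2*Δ-labelled libraries and 46 and 39 reads in WT (3.02). The genes themselves had log2 ratios of 0.76, 0.78 and 0.50, none of them called. *mdm12* encodes a subunit of the ERMES tether between ER and mitochondria. The antisense XUTs with the largest ratios had few reads. That opposite *pga2* had 13 and 13 reads in the *exo2*Δ-labelled libraries and 4 and 0 in WT, that opposite *gyp2* had 16 and 14 reads in the *exo2*Δ-labelled libraries and 1 and 2 in WT, and that with the larger ratio of a pair opposite *yox1* had 18 and 20 reads in the *exo2*Δ-labelled libraries and 1 and 4 in WT. *gyp2* and *yox1* were higher (1.64 and 1.81), and *pga2* was just under the threshold (0.99).

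On the same strand, 10 of the 133 genes shared at least 50 nt with an annotated lncRNA, a XUT, another noncoding transcription unit or a tRNA gene. Of these, 9 were higher (90.0%), against 54.8% of all mRNAs. XUTs were selected for their rise in these libraries, so that the count is not independent of that selection where reads are shared with a XUT. The table's span of *cgr1*, a ribosome biogenesis gene, is 3115 nt long, while that of RefSeq is 514 nt. *XUT0688* lies within it and held 997 and 1108 of the 1118 and 1250 reads of *cgr1* in the *exo2*Δ-labelled libraries, and 444 and 421 of its 509 and 533 reads in WT. The log2 ratio of *cgr1* was 1.59 over the span and 1.07 over its coding exons. *pat1* was 1.48 over its span and 1.09 over its coding exons, and it holds the lncRNA SPNCRNA.108, with 155 and 122 reads in the *exo2*Δ-labelled libraries and 23 and 19 reads in WT. Over coding exons alone, 60 of the flanking genes were higher, of which 58 were among the 63.

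Within the gaps, little RNA was counted. The 32 annotated ncRNAs with their middle in a gap received 118 and 148 reads in total in the *exo2*Δ-labelled libraries and 113 and 117 reads in WT, and 20 of them had no more than 3 reads in any library. Of the 11 that could be tested, 1 was called higher, SPNCRNA.1172 at *cen3*, which shares its reads with *XUT0068*. The 3 XUTs that overlap a gap had 108 and 109 reads in the *exo2*Δ-labelled libraries and 47 and 64 reads in WT. *XUT0266* at *cen2* is among them, although its middle lies just past the gap. All 3 were called higher, which their selection fixes. The 55 tRNA genes of the gaps received 2101 and 2075 reads in the *exo2*Δ-labelled libraries and 1916 and 1596 reads in WT. Of the 32 tested, 9 were higher, against 62 of 161 in the whole table. The library preparation is not made for RNAs as short as tRNAs, and uniquely mapped reads leave out what falls on identical repeats and identical tRNA genes. How far this lowered the counts was not tested. Whether transcripts of the outer repeats differed cannot be told from these counts. Outside the gaps, 20 of 36 ncRNAs tested were higher, against 692 of 1384 in the whole table. Several of these ncRNAs share nearly all their reads with a XUT, such as SPNCRNA.936 with *XUT1505* and SPNCRNA.937 with *XUT0689*. This count is therefore not independent of the selection of XUTs. All 47 XUTs of the windows were higher, a count that their selection fixes, with a median log2 ratio of 1.67 against 1.97 for all XUTs. Of 11 tested ncTUs, which are noncoding transcription units added from another annotation, 5 were higher and 2 lower. In the whole table, 207 of 410 were higher and 20 lower. Both lower ncTUs of the windows lay opposite abundant mRNAs. The ncTU opposite *fba1* had 10 and 14 reads in the *exo2*Δ-labelled libraries and 65 and 48 reads in WT, and that opposite *lys1* had 17 and 13 reads in the *exo2*Δ-labelled libraries and 43 and 44 reads in WT. The ncTU opposite *lys1* also lies wholly within *prm1* on the same strand, and *prm1* was called higher (log2 ratio of 1.03).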

How the data were processed

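The authors made stranded libraries from 125 ng of RNA after depletion of rRNA, and mapped the paired reads, 50 nt from each end, on ASM294v2 with TopHat, allowing up to 3 mismatches and introns up to 2 kb. The authors deposited 1 table with the signal as a density in tag/nt per feature and library, normalized on sn(o)RNA levels. The tool that counted reads on features is not given in the sources used here. Multiplied by feature length, 100% of the densities of a library were within 0.001 of a whole multiple of a step (0.844 to 1.17), which gave the reads per feature.

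log2(density + 1.55e-04) was compared with limma 3.58.1 (R 4.3.3) over the 8826 of 9139 features with at least 10 reads in all, with a variance trend and Benjamini-Hochberg adjustment. CDS exon lines were left out. The fit was tested on simulated data. With 2 libraries per group, p-values lean on the variance modelled over all features. Read floors of 3 cover counting error only. The members and lists, and the role groups, were chosen with earlier results of these data known. Genes named were the 2 nearest the gap per arm, per centromere the 3 highest and 3 lowest ratios with at least 50 normalized reads and the 2 highest densities, genes under the read filter, and the 6 with the strongest antisense XUT. Other names were chosen after values were seen. Distances run from a gene's middle to the window's centre, or from its nearer end to the gap. Promoters, transcript ends and gene products are from RefSeq (ASM294v3), in which all 133 genes were found and 279 of their 285 coding exons had the same coordinates. Tables and plots were made in Python 3.11.15 with pandas 2.3.3, numpy 2.4.6, scipy 1.17.1 and matplotlib 3.10.9. Alternatives covered scaling, pseudocount, filter, threshold, distance, the replicate block, coding exons (added after seeing the data) and leaving out each library. Summed columns of both replicates were not used.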

Additional observations from a re-analysis of the deposited data

How the results depend on the processing

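The count of flanking genes called higher (63) was 28 with scaling on total reads, 3 with the median of ratios and 110 with no threshold on the ratio. That of genes called lower (1) was 2, 19 and 9 under the same settings, and 0 with scaling on summed sn(o)RNA reads or a test against a 2-fold change. Leaving out each library gave 59 to 67 higher and 0 to 1 lower (0 without WT replicate 1). The other settings gave 60 to 70 higher, except the test against a 2-fold change (44). With the replicate block, 62 were higher and 1 lower. Only 2 pairs share a number, the labels name no shared batch, and deviations of same-numbered libraries correlated at 0.283 over 5447 features. The block ended the call of meu27 (adjusted p = 0.0945, limma) and changed no other call among the genes named.

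The median log2 ratio of all flanking genes was 0.46 with scaling on total reads, -0.25 with the median of ratios, 1.03 on summed sn(o)RNA reads, 0.95 with no filter, 0.95 with at least 100 reads and 0.92 over coding exons, and 0.91 to 1.01 when each library was left out. For cen1 it was 0.34 and -0.38 with the first 2 of these scalings (0.78 to 0.91 leaving out a library). For cen2 it was 0.37, -0.34 and 0.94 with the 3 scalings and 0.80 over coding exons (0.78 to 0.96 leaving out a library). For cen3 it was 0.62 and -0.094 (1.07 to 1.15 leaving out a library). Near minus far genes was -0.09 from the window's centre, 0.19 from the gap edge and 0.16 with a split within each centromere.

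With scaling on total reads and the median of ratios, log2 ratios turned to -0.26 and -0.98 for tma19, -0.053 and -0.76 for hmo1, -0.28 and -0.99 for rpb1, -0.072 and -0.78 for cmc2, -0.15 and -0.86 for nro1, -0.38 and -1.09 for hem12, and -0.28 and -0.99 for mam301. With the median of ratios alone, they turned to -0.44 for rad50, -0.22 for pga2, -0.71 for SPBC28F2.05c, -0.42 for mdm12 and -0.10 for chk1. Over coding exons hem12 turned to -0.040. The pga2 ratio (0.99) passed 2-fold without exo2 replicate 1 or WT replicate 1 (1.03 and 1.04). The cause was not tested beyond the shift that each scaling makes by construction.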
